A study of Mus musculus with 4 samples.

Results

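The Fc gamma receptors of the mouse, the surface proteins through which macrophages and microglia bind immunoglobulin G, were followed in single myeloid cells sorted from brains with lung cancer metastases. The 5 genes described are Fcgr1, Fcgr3, Fcgr4, Fcgr2b and Fcer1g, chosen by symbol as a family, out of 15690 genes in the deposited files. Cells were sorted into 384-well plates, and the transcripts of each well were counted with unique molecular identifiers (UMIs) by the plate method cited in the labels. The study profiled 2 sorts, labelled BMDM (read in this field as macrophages derived from bone marrow) and microglia, each with whole brain radiation therapy (WBRT) and without it.

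All mice were tumor-bearing athymic nude animals (Balb/C, CAnN.Cg-Foxn1nu/Crl), a strain that lacks a thymus and with it most T cells but keeps its myeloid cells. The libraries with WBRT are labelled with 5 fractions of 2 Gy and d3 (counted from a point that is not stated), and their tumor stage is given as not stratified. The libraries without WBRT are labelled none for radiation and small for tumor stage, so the effects of treatment, stage and plate cannot be told apart. Each group is 1 plate and no animals are named. With no replicate there is no test, and every difference given here is a difference between libraries.

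After filtering, 262 wells of BMDM with WBRT, 234 of BMDM without, 151 of microglia with WBRT and 157 of microglia without were kept of 384 each. Total counts lay between 649107 and 2513025 a library, with medians between 2546 and 8894 a well. The microglia library with WBRT stood apart: the median share of spike-in (ERCC) counts was 30.6% there and between 6.92% and 7.86% in the other libraries. In that library 74.2% of wells fell in clusters with little of the nuclear RNA Malat1, against 42.7% in microglia without WBRT and at most 9.92% in BMDM. Marker lists followed the sort labels in part. Summed over 10 microglia markers the level was 2883 CPM (counts scaled to a library total of 1000000) in BMDM with WBRT, 3467 CPM in BMDM without, 10500 CPM in microglia with WBRT and 9604 CPM in microglia without. Of the 10 monocyte markers 9 were found in the deposited data, all but Chil3. They summed to 2286, 1754, 317 and 182 CPM in the same 4 libraries, with Ccr2 at 0 counts in microglia without WBRT. Of other cells that carry Fc receptors, B cell markers summed to at most 17.2 CPM, with no count under the symbol Ighm in the 4 libraries. Mast cell markers summed to at most 0.398 CPM. Of the 9 neutrophil markers only 4 were found in the deposited data, and these summed to between 187 and 342 CPM. S100a9 and Ly6g were among those not found under their symbols, so their level is unknown. Markers of T or NK cells summed to 4.78 CPM in BMDM with WBRT, 94.9 CPM in BMDM without, 6.16 CPM in microglia with WBRT and 50.4 CPM in microglia without. No count stood under the symbol Cd3e in the 4 libraries. For Ighm and Cd3e a level of 0 and a symbol missing from the data were not told apart. Dendritic cells were present in BMDM, as the clusters described further on show.

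Fc gamma receptors bind the constant part of immunoglobulin G on coated particles and immune complexes. Fcgr1 encodes the high-affinity receptor, and Fcgr3 and Fcgr4 encode receptors of lower affinity that act through immune complexes. These receptors are activating and signal through the shared gamma chain encoded by Fcer1g, whose ITAM motif recruits the kinase Syk and starts uptake. Fcgr2b encodes the inhibitory receptor, whose ITIM motif recruits the phosphatase encoded by Inpp5d and raises the threshold for activation. In the brain, microglia and border macrophages are the main cells that carry these receptors, and interferon gamma is known to raise Fcgr1 and Fcgr4 in mouse macrophages.

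On GRCm38.p6 in RefSeq, Fcgr2b (170960558 to 170976071), Fcgr4 (171018926 to 171029761), Fcgr3 (171051169 to 171065915) and Fcer1g (171229572 to 171234349) lie on chromosome 1 within 274 kb. Fcgr1 lies apart, on chromosome 3 (96282909 to 96293969). For 4 of these genes, the activating receptors and the inhibitory one, the 250 bases before an annotated transcript start are shown. For Fcgr1, Fcgr4 and Fcgr2b this is the start of the gene, while the window of Fcgr3 lies inside the gene's span, before a transcript that begins there, the first of the windows listed for it. They are credited to RefSeq and written 5′ to 3′ on the gene's own strand, which is the minus strand for Fcgr1 (chr3:96293970-96294219), Fcgr3 (chr1:171059404-171059653) and Fcgr2b (chr1:170976072-170976321) and the plus strand for Fcgr4 (chr1:171018676-171018925). Capitals mark matches, on either strand, to a STAT site of the GAS type (TTCNNNGAA), to the core of an interferon-stimulated response element (GAAA, any 2 bases, GAAA) and to the core bound by the myeloid factor PU.1 (AGGAAG, on the other strand CTTCCT).
Fcgr1: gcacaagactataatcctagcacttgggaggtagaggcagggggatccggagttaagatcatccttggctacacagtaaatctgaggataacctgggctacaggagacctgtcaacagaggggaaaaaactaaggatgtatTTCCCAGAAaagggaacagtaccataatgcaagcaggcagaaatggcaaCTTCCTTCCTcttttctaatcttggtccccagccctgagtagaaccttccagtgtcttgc
Fcgr4: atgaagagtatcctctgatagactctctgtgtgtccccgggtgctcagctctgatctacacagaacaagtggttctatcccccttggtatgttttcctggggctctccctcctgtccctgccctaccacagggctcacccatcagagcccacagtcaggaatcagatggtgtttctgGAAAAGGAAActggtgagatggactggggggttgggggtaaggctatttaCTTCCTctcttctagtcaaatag
Fcgr3: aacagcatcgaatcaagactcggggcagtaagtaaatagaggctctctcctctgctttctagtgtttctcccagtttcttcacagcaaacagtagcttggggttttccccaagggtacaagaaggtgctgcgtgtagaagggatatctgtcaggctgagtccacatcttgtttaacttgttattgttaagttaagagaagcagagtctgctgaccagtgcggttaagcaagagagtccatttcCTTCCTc
Fcgr2b: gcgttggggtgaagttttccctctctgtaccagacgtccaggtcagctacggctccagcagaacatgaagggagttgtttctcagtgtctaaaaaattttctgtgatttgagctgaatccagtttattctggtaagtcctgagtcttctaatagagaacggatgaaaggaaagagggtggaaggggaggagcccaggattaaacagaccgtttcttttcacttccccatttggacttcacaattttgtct
The Fcgr1 window held the GAS match TTCCCAGAA, whose first base lies 109 bases before the start, and 2 PU.1 matches that overlap. The Fcgr4 window held the response element match GAAAAGGAAA, beginning 73 bases before the start, and 1 PU.1 match. The windows of Fcgr3 and of Fcer1g held 1 PU.1 match each, and the Fcgr2b window held no match to these letters. Of 32817 windows of the same length, 7.02% held the GAS letters, 2.97% the response element core and 29.5% the PU.1 core, so a PU.1 match is common. For each of these motifs most windows held no match, so its absence from the Fcgr2b window does not set that gene apart. A match describes letters and shows no binding.

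Levels are given as pooled CPM of a library with exact Poisson intervals at 95%, which cover counting error only. The method counts molecules by UMI and reads transcript ends, so levels of different genes are set side by side without a correction for length. A fold is the ratio of pooled CPM, and a log2 ratio was taken on CPM + 5. A gene was called higher or lower in a comparison when its log2 ratio was at least 1 in size and it reached 20 CPM in 1 of the 2 libraries.

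Fcgr1, the high-affinity activating receptor, was highest in microglia without WBRT. Its level was 774 CPM (740 to 809) in BMDM with WBRT, 658 CPM (614 to 704) in BMDM without, 606 CPM (547 to 668) in microglia with WBRT and 1210 CPM (1139 to 1286) in microglia without. The lowest levels, in microglia with WBRT and BMDM without, had overlapping intervals. Across wells the median was 655 CPM in BMDM with WBRT, 411 in BMDM without, 452 in microglia with WBRT and 1062 in microglia without, with wells at 0 in every library and single wells up to 3855 CPM. An Fcgr1 UMI was seen in 88.2% of wells of BMDM with WBRT, 70.9% of BMDM without, 66.9% of microglia with WBRT and 90.4% of microglia without. With each well thinned to 1000 UMIs the share was again highest in microglia without WBRT (64.3%) and lowest in microglia with WBRT (37.7%). The fold with WBRT over none was 1.18 (1.08 to 1.28) in BMDM and 0.501 (0.444 to 0.562) in microglia, so the 2 sorts differed in opposite directions. In BMDM, however, the log2 ratio was -0.02 scaled to spike-ins and -0.09 with wells unlike their sort left out. The difference between the sorts was not tested. BMDM stood at 1.28 times (1.15 to 1.43) the microglia level with WBRT and at 0.544 times (0.496 to 0.596) without.

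Fcgr3, the activating receptor of lower affinity, had a higher pooled level in microglia than in BMDM, with exceptions given below. It stood at 542 CPM (514 to 571) in BMDM with WBRT, 401 CPM (367 to 438) in BMDM without, 786 CPM (719 to 857) in microglia with WBRT and 609 CPM (558 to 662) in microglia without. The intervals of microglia without WBRT and BMDM with WBRT overlapped, and the others did not. Wells with an Fcgr3 UMI made up 81.7% of BMDM with WBRT, 45.3% of BMDM without, 82.8% of microglia with WBRT and 78.3% of microglia without. BMDM without WBRT was thus the library with most wells that lacked the transcript, and the median well was at 448 CPM in BMDM with WBRT and at 0 in BMDM without. After thinning the shares were 38.9%, 17.5%, 49.7% and 38.2%, in the same order. The fold with WBRT over none was 1.35 (1.22 to 1.50) in BMDM and 1.29 (1.14 to 1.46) in microglia. In BMDM the log2 ratio, 0.43, passed the limit for a call at 1000 UMIs, with 527 CPM against 231 CPM (1.17), and without cluster 6 (1.05). In microglia this direction rested on the wells low in Malat1, since without them the level was 572 CPM with WBRT and 612 CPM without. Per 1000 spike-in counts it was also lower with WBRT, at 3.11 against 7.71, and BMDM with WBRT, at 6.32, stood above microglia with WBRT. With wells unlike their sort left out, BMDM without WBRT stood at 688 CPM and microglia without WBRT at 620 CPM. That rule kept only microglia-like wells in microglia, but dropped only microglia-like and dendritic-cell-like wells from BMDM.

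Fcgr4, an activating receptor for immune complexes, was the least abundant of the activating receptors in each library. Its level was 142 CPM (127 to 157) in BMDM with WBRT, 122 CPM (103 to 142) in BMDM without, 163 CPM (134 to 197) in microglia with WBRT and 311 CPM (275 to 350) in microglia without. Microglia without WBRT stood above the other 3 libraries, whose intervals overlapped between neighbours. A UMI was found in 51.9% of wells of BMDM with WBRT, 28.6% of BMDM without, 27.8% of microglia with WBRT and 67.5% of microglia without. In microglia with WBRT a single well held 19.9% of the Fcgr4 counts, and the level without it was 135 CPM. The fold with WBRT over none was 0.525 (0.416 to 0.660) in microglia, while in BMDM it was 1.17 with an interval that includes 1 (0.961 to 1.42). Fcgr4 was the one gene of the 5 called in BMDM over microglia without WBRT, at 0.391 (0.319 to 0.478) and a log2 ratio of -1.32. The call was lost when wells unlike the sort were left out, at 169 CPM in BMDM against 319.5 CPM in microglia (-0.90). Without cluster 6, Fcgr1 (-1.06) and Fcgr3 (-1.22) were called too. In that comparison 6.81% of 6591 tested genes were called lower and 10.3% higher.

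Fcer1g, the gamma chain that the activating receptors share, was the most abundant of the 5 genes in each library. It stood at 1985 CPM (1930 to 2041) in BMDM with WBRT, 1011 CPM (957 to 1068) in BMDM without, 1753 CPM (1653 to 1858) in microglia with WBRT and 1484 CPM (1404 to 1567) in microglia without. No intervals overlapped, and BMDM without WBRT was the lowest. The transcript was seen in 98.5% of wells of BMDM with WBRT, 88.0% of BMDM without, 94.7% of microglia with WBRT and 98.1% of microglia without. With WBRT over none its fold was 1.96 (1.85 to 2.09) in BMDM, a log2 ratio of 0.97 that lies just under the limit for a call, and 1.18 (1.09 to 1.28) in microglia, where the level per 1000 spike-in counts was lower with WBRT (6.94 against 18.8). In BMDM the gamma chain therefore differed more between the libraries than the sum of the 3 receptors that use it, which was 1458 CPM (1411 to 1506) with WBRT and 1181 CPM (1122 to 1242) without. In microglia the sum was 1556 CPM (1461 to 1655) with WBRT and 2130 CPM (2034 to 2229) without, the direction opposite to that of Fcer1g.

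Fcgr2b, the inhibitory receptor, differed most between the libraries. Its level was 451 CPM (425 to 477) in BMDM with WBRT, 186 CPM (163 to 211) in BMDM without, 74.0 CPM (54.5 to 98.0) in microglia with WBRT and 172 CPM (145 to 201) in microglia without. BMDM with WBRT lay above the other libraries and microglia with WBRT below them, while the libraries without WBRT had overlapping intervals. Wells with an Fcgr2b UMI made up 80.9% of BMDM with WBRT, 40.2% of BMDM without, 19.9% of microglia with WBRT and 42.7% of microglia without. Thinned to 1000 UMIs the shares were 32.8%, 16.2%, 8.61% and 14.6%, so the same libraries were highest and lowest at equal depth. The median well stood at 331 CPM in BMDM with WBRT and at 0 in the other 3 libraries.

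Between libraries with and without WBRT, Fcgr2b was 2.43-fold higher in BMDM (2.11 to 2.80) and stood at 0.431 of the level in microglia (0.305 to 0.601). It was the only gene of the 5 called in either comparison, higher in BMDM and lower in microglia. In BMDM that call was lost without cluster 2 (log2 ratio 0.99) and without wells unlike the sort (0.80), and in microglia with wells weighted alike (-0.66) and at 1000 UMIs (-0.72). Fcgr1 in microglia fell just short of the limit, at -0.99, and passed it at 3000 counts a well (-1.06), with TMM factors (-1.05) and without low-Malat1 clusters (-1.10). Fcgr1 also passed at 500 counts (-1.01), without the top well (-1.026) and by spike-ins (-2.65). Fcgr4 in microglia, at -0.91, passed the limit at 1000 UMIs (-1.44) and with wells weighted alike (-1.21), where Fcgr2b did not. Fcgr4 also passed without wells unlike the sort (-1.175), cluster 3 (-1.11), cluster 6 (-1.004) or the top well (-1.15), and by spike-ins (-2.52). Among all tested genes, 5.16% were called higher in BMDM and 9.36% in microglia, and 6.14% were called lower in BMDM and 7.56% in microglia. With WBRT, BMDM stood 6.09-fold above microglia (4.56 to 8.31), and Fcgr2b was again the one gene called, against 7.91% of all tested genes called higher and 7.45% lower. Without WBRT the fold was 1.08 (0.878 to 1.34), and with wells unlike the sort left out the level there was 297 CPM in BMDM against 175 CPM in microglia, a log2 ratio of 0.75. Counted per 1000 spike-in counts, Fcgr2b was 5.25 in BMDM with WBRT, 2.58 in BMDM without, 0.293 in microglia with WBRT and 2.17 in microglia without, in the same directions as the CPM. On that scale all 5 genes were lower in microglia with WBRT than without, since this library held few endogenous counts per spike-in.

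**Figure D1:**
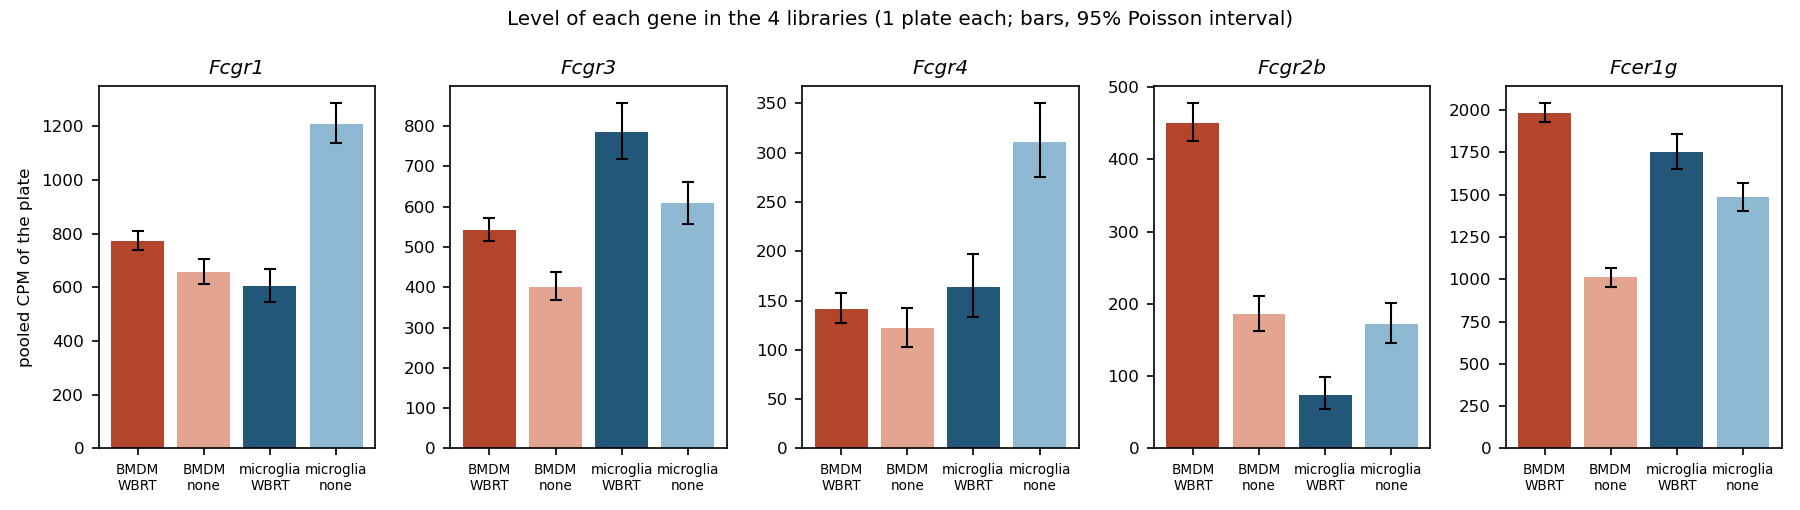
Pooled CPM of each of the 5 genes (y axis, from 0, a scale of its own per gene) in BMDM with WBRT, BMDM without, microglia with WBRT and microglia without, 1 plate each. Bars are 95% Poisson intervals; Fcgr2b is highest in BMDM with WBRT (451 CPM) and lowest in microglia with WBRT (74.0 CPM), while Fcgr1 and Fcgr4 are highest in microglia without WBRT.

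**Figure D2:**
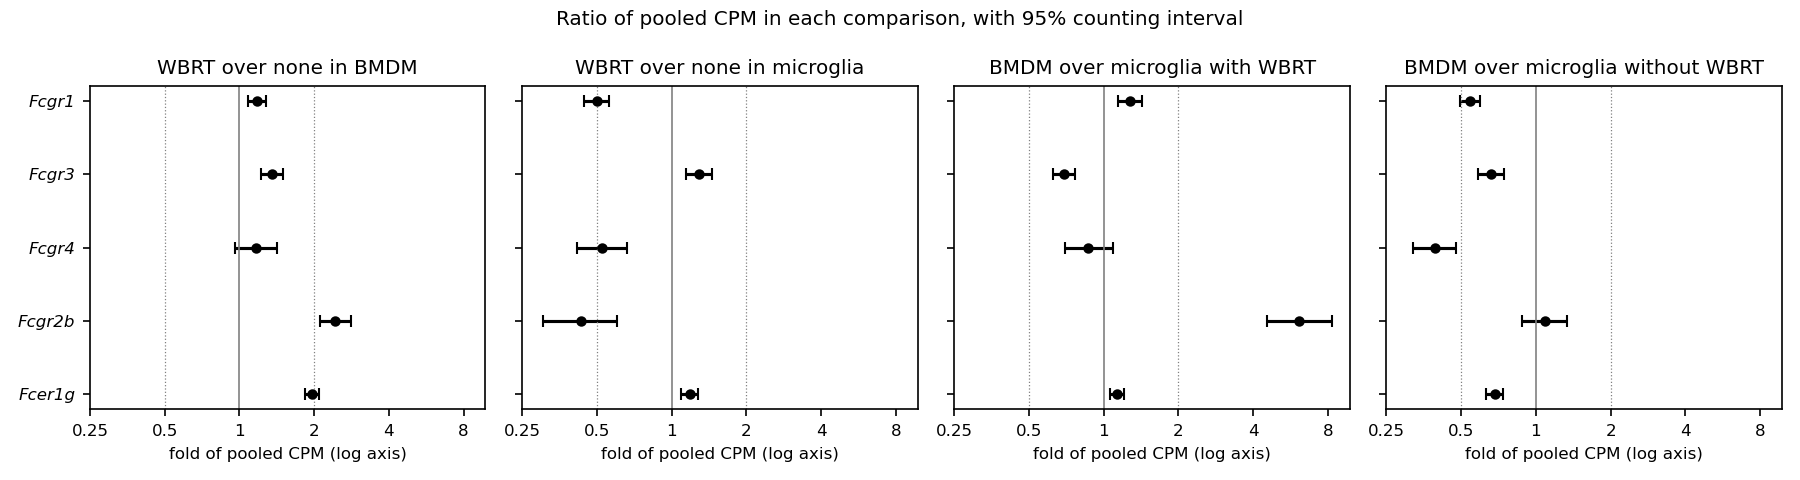
Ratio of pooled CPM (x axis, log scale) for the 5 genes in each of the 4 comparisons, with 95% counting intervals and a solid line at 1. Fcgr2b lies above 1 for WBRT over none in BMDM (2.43) and below it in microglia (0.431), and at 6.09 for BMDM over microglia with WBRT.

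Markers of border-associated macrophages were higher with WBRT in both sorts, in microglia opposite to Fcgr2b. The 10 markers of border-associated or perivascular macrophages, all detected in BMDM, summed to 2715 CPM in BMDM with WBRT, 633 CPM in BMDM without, 723 CPM in microglia with WBRT and 139 CPM in microglia without, where Lyve1 was at 0. The 7 astrocyte markers summed to 920 CPM in microglia with WBRT, 103 CPM in microglia without (Aqp4 and Gja1 at 0) and at most 50.9 CPM in BMDM. Their part in the differences was not tested.

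Because activating and inhibitory receptors compete for the same ligand on one cell, their make-up was taken within libraries and within wells. The activating receptors Fcgr1, Fcgr3 and Fcgr4 made up 76.4% (75.2 to 77.6) of the receptor counts in BMDM with WBRT and 86.4% (84.7 to 88.0) in BMDM without. In microglia they made up 95.5% (94.0 to 96.6) with WBRT and 92.5% (91.3 to 93.7) without. Put as a ratio, there were 3.24 activating transcripts per Fcgr2b transcript in BMDM with WBRT, 6.36 in BMDM without, 21.0 in microglia with WBRT and 12.4 in microglia without. The libraries with WBRT were therefore the extremes at both ends. These intervals are exact binomial intervals and cover counting error only.

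In single wells, an activating UMI and an Fcgr2b UMI were found together in 79.8% of wells of BMDM with WBRT, 38.5% of BMDM without, 17.9% of microglia with WBRT and 42.0% of microglia without. Depth weighs on these shares, and at 1000 UMIs a well they were 23.7%, 12.8%, 5.30% and 12.7%. Among wells with an activating UMI, Fcgr2b was seen in 83.9% of BMDM with WBRT, 47.6% of BMDM without, 19.1% of microglia with WBRT and 43.1% of microglia without. Wells with Fcgr2b and no activating UMI made up between 0.637% and 1.99% of a library, and at 1000 UMIs 9.16% of BMDM with WBRT, 3.42% of BMDM without, 3.31% of microglia with WBRT and 1.91% of microglia without. At that depth Fcgr2b was seen in 33.9% of wells with an activating UMI and 30.4% of wells without one in BMDM with WBRT, and in 24.4% and 7.21% in BMDM without. In microglia these shares were 7.48% (8 of 107 wells) and 11.4% (5 of 44) with WBRT, and 15.9% (20 of 126) and 9.68% (3 of 31) without. The intervals overlapped within each of these microglia libraries. Of wells with at least 5 receptor counts, Fcgr2b made up the majority in 15 of 218 in BMDM with WBRT, 2 of 105 in BMDM without, 1 of 87 in microglia with WBRT and 0 of 120 in microglia without. In the median well of this kind the activating share was 79.3% in BMDM with WBRT, 89.7% in BMDM without, 100% in microglia with WBRT and 96.9% in microglia without.

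Among the activating receptors, Fcgr1 led in BMDM with WBRT (40.6% of receptor counts), in BMDM without (48.2%) and in microglia without WBRT (52.6%). In microglia with WBRT it was Fcgr3 that led, with 48.3% of receptor counts, against 26.4% in microglia without. Fcgr4 made up between 7.43% (BMDM with WBRT) and 13.5% (microglia without WBRT).

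**Figure D3:**
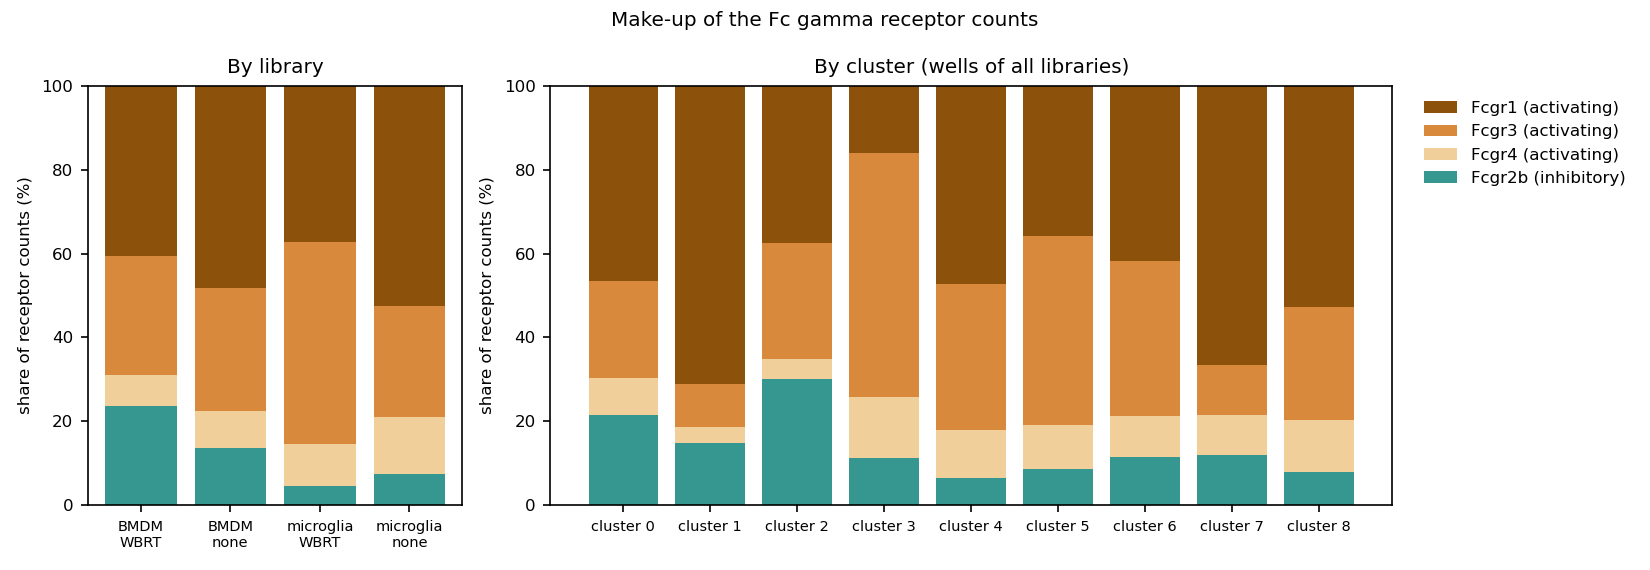
Share of the Fc gamma receptor counts (y axis, %) held by Fcgr1, Fcgr3, Fcgr4 and Fcgr2b in each library (left) and in clusters 0 to 8 over wells of all libraries (right). Fcgr2b holds 23.6% in BMDM with WBRT and 4.54% in microglia with WBRT, and 30.2% in cluster 2; cluster 9 is not drawn, since it held 22 receptor counts.

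The wells were grouped into 10 clusters computed without the 5 genes and without the pathway genes described below, and names were given only from fixed marker lists. Clusters 4, 5 and 8 were microglia-like, cluster 5 being led by the stress and immune genes Adamts1, Hspa1a and Tnf and cluster 8 by C4b, Rrm2 and Cxcl13. Cluster 1 was conventional or monocyte-derived dendritic cell-like, cluster 7 cross-presenting dendritic cell-like and cluster 9 mature dendritic cell-like. A marker passed if at least doubled over the other wells and seen in at least 25% of the cluster's wells. In cluster 1 there passed 8 of 10 markers of the list that names it. Of 9 monocyte markers 4 passed there too (Ccr2, Plac8, Ms4a4c and Gpr141). Cluster 2 was called border-associated or perivascular macrophage-like on 5 of 10 markers (Pf4, F13a1, Ms4a7, Cbr2 and Stab1). The markers Mrc1, Cd163, Lyve1, Folr2 and Clec10a did not pass there, so this name is a loose one. Clusters 0 (led by Clec4a1, Itgal and Spon1, with Ccr2 among its leading genes), 3 (Slc40a1, Ccl8, Igf1) and 6 (Mid1, D830005E20Rik, Grk4) stayed unnamed. In cluster 0 there passed 2 monocyte markers (Ccr2 and Fn1) and 3 of border-associated or perivascular macrophages (Mrc1, Ms4a7 and Cbr2). With 1 plate a group, a cluster held mostly by 1 plate may be that plate.

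Fcgr2b was highest in cluster 2, at 601 CPM (553 to 652), where 96.0% of 75 wells had a UMI and the activating share was 69.8% (67.7 to 71.9). Cluster 0 followed with 455 CPM (416 to 495) and an activating share of 78.4% (76.7 to 80.0). The microglia-like clusters lay far lower, at 134 CPM in cluster 4, 148 CPM in cluster 5 and 181 CPM in cluster 8, with activating shares of 93.6%, 91.5% and 92.2%. These values pool wells of several plates: in cluster 5 the share was 98.5% in microglia with WBRT and 87.5% in BMDM with WBRT, and in cluster 4 it was 87.5% in BMDM without WBRT, with the microglia plates given further on.

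Fcgr3 stood out in cluster 3, at 1192 CPM (1052 to 1344) and 58.3% of the receptor counts, with Fcgr1 at 325 CPM (254 to 409). Cluster 3 held wells of both sorts, and it was low in Malat1 and rich in spike-in counts (median 27.1%). In cluster 8 the order was the reverse, with Fcgr1 at 1232 CPM (1154 to 1314) and Fcgr3 at 626 CPM (570 to 684). In cluster 1 Fcgr1 stood at 614 CPM (539 to 696) and Fcgr3 at 88.8 CPM (61.8 to 124), so Fcgr1 made up 71.2% of the receptor counts of these dendritic-cell-like wells.

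The other dendritic-cell-like clusters had the lowest levels of the family. Cluster 7 held Fcgr1 at 173 CPM (131 to 225), Fcgr3 and Fcgr2b at 31.0 CPM each (14.8 to 56.9) and Fcer1g at 347 CPM (285 to 417). In cluster 9, Fcgr3 was seen in 0 of 36 wells, Fcgr2b in 1 well and Fcgr1 at 139 CPM (80.9 to 222). That 0, taken as up to 3 wells, allows 8.33% of wells with an Fcgr3 UMI at this depth, and it sets no limit on cells that express the gene. Fcer1g was still present there, at 343 CPM (247 to 464), against 2116 CPM in cluster 0. As a gauge of background, cluster 9 (median 3049 counts a well) came from the plate of BMDM without WBRT, in which 45.3% of all wells (median 4388 counts) had an Fcgr3 UMI.

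**Figure D4:**
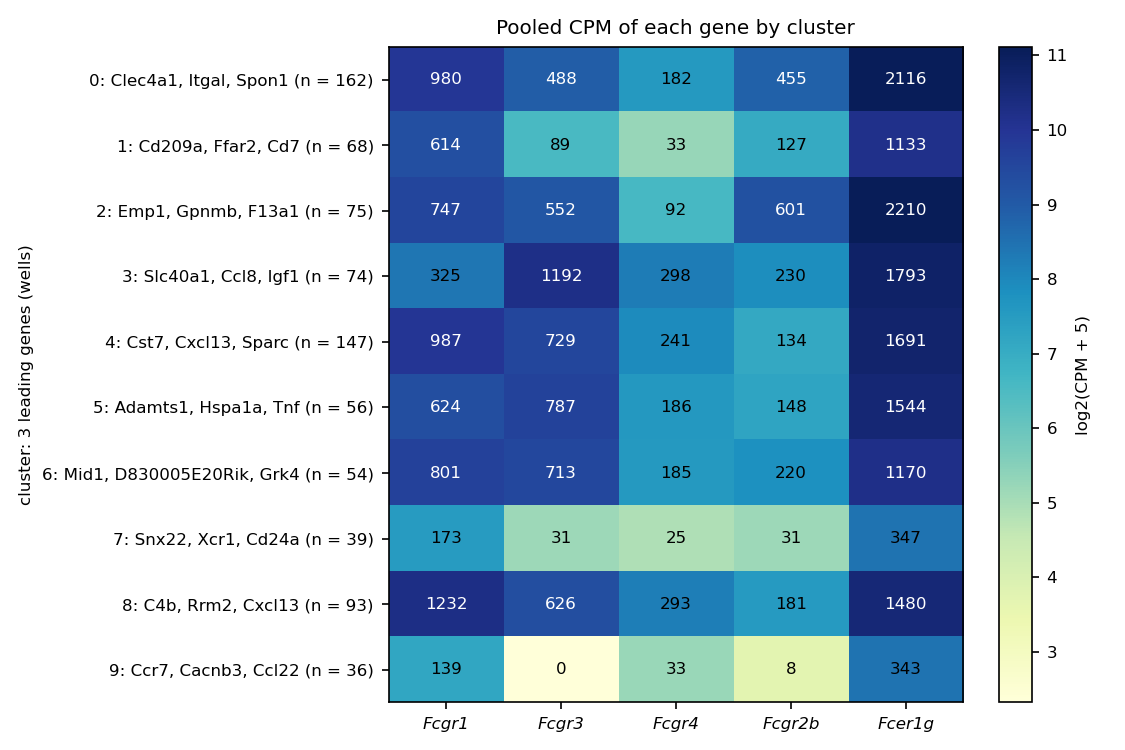
Pooled CPM of the 5 genes (columns) in the 10 clusters (rows, with their 3 leading genes and number of wells); colour is log2(CPM + 5) and the printed numbers are CPM. Fcgr2b peaks in cluster 2 (601) and cluster 0 (455), Fcgr3 in cluster 3 (1192), and clusters 7 and 9 are low in every column.

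The plates differed in which clusters they held. The part of this in the library values was not tested. Cluster 2, where Fcgr2b was highest, held 73 wells of BMDM with WBRT and 1 of BMDM without, and it carried 49.8% of the Fcgr2b counts of BMDM with WBRT. Of the clusters lowest in the family, cluster 7 made up 1.53% of wells of BMDM with WBRT and 14.5% of BMDM without, and cluster 9 held 0 wells of BMDM with WBRT and 36 of BMDM without. Without cluster 2, Fcgr2b stood at 360 CPM in BMDM with WBRT and 179 CPM in BMDM without. With microglia-like and dendritic-cell-like wells left out of BMDM, Fcgr2b had 521 CPM with WBRT, against 297 CPM without, a log2 ratio of 0.80. Under the same restriction Fcgr1 was 841 CPM with WBRT and 895 CPM without, and Fcgr3 was 537 CPM with WBRT and 688 CPM without, so neither kept the direction it had over all wells. The unnamed cluster 6 stayed in there, with 5 wells of BMDM with WBRT and 44 without. Of BMDM without WBRT it held 24.65% of all counts, 33.2% of Fcgr1 counts and 50.7% of Fcgr3 counts. With only cluster 6 left out, Fcgr1 was 782 CPM with WBRT and 583.5 CPM without. Fcgr3 was then 549 CPM with WBRT and 262 CPM without.

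Within cluster 0, which had 110 wells of BMDM with WBRT and 50 without, the differences of Fcgr1, Fcgr3, Fcgr2b and Fcer1g were smaller than over all wells, while that of Fcgr4 was larger. Fcgr2b stood at 475 CPM (432 to 521) with WBRT and 365 CPM (285 to 460) without, a fold of 1.30 (1.01 to 1.70). Fcer1g reached 2209 CPM with WBRT, against 1676 CPM without, a fold of 1.32 (1.17 to 1.49). Fcgr1 had a fold of 1.03 (0.883 to 1.22) and Fcgr3 of 1.04 (0.831 to 1.32), both within counting error, and Fcgr4 one of 1.66 (1.07 to 2.68) on 182 counts with WBRT and 23 without. In cluster 1, with 24 wells with WBRT and 42 without, Fcgr2b had a fold of 0.923 (0.509 to 1.68), Fcgr1 one of 0.629 (0.480 to 0.820) and Fcer1g one of 1.39 (1.14 to 1.69). Fcer1g was thus higher with WBRT in both clusters, and Fcgr2b in cluster 0.

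The microglia plates also differed in the clusters they held: cluster 8 held 2 wells with WBRT and 84 without, and cluster 3 held 46 with WBRT and 3 without. Cluster 3 carried 56.2% of the Fcgr2b counts of microglia with WBRT, and without it the level there was 39.7 CPM, against 172 CPM without WBRT. Cluster 4, shared by 66 wells with WBRT and 64 without, gave folds in the direction of the whole libraries for all 5 genes. Fcgr2b stood at 42.2 CPM (18.2 to 83.1) with WBRT and 181 CPM (123 to 257) without, on 8 and 31 counts, a fold of 0.233 (0.0927 to 0.519). Fcgr4 had 121 CPM with WBRT, against 397 CPM without, a fold of 0.306 (0.182 to 0.497). The fold of Fcgr1 was 0.760 (0.613 to 0.941), that of Fcgr3 1.42 (1.10 to 1.84) and that of Fcer1g 1.33 (1.13 to 1.56). Within this cluster the activating share was 97.7% (95.6 to 99.0) with WBRT and 92.2% (89.0 to 94.6) without.

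**Figure D5:**
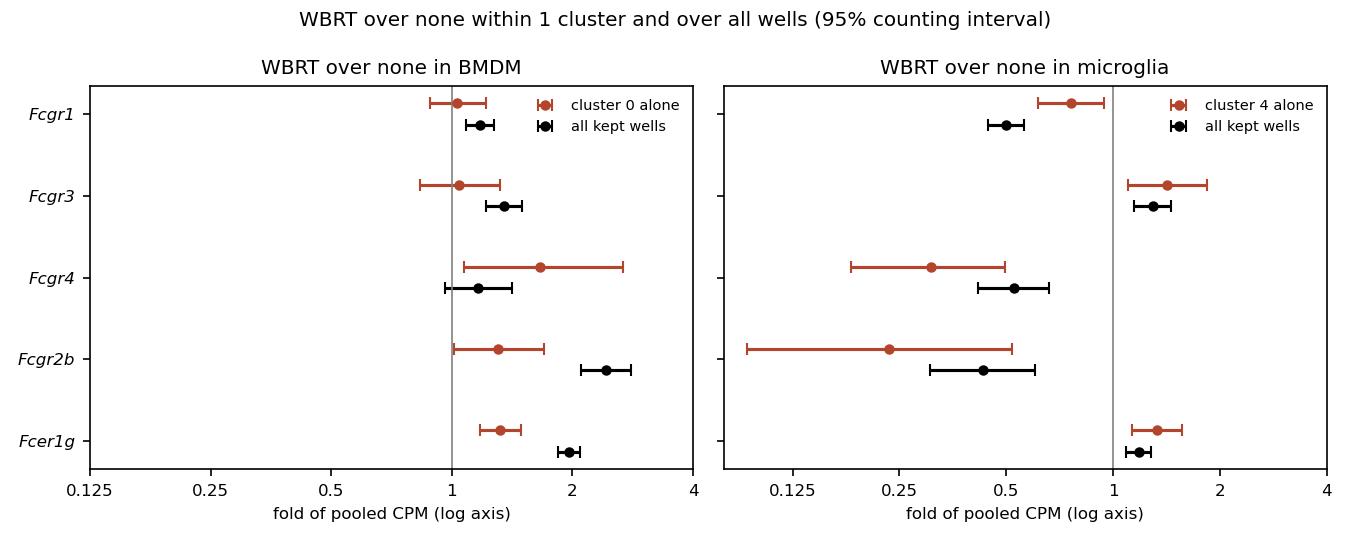
Ratio of pooled CPM with WBRT over none (x axis, log scale, 95% counting intervals) within 1 cluster (red) and over all kept wells (black), for BMDM in cluster 0 and microglia in cluster 4. In BMDM the Fcgr2b ratio is 1.30 in cluster 0 and 2.43 over all wells; in microglia it is 0.233 in cluster 4 and 0.431 over all wells.

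The sorts could also be compared inside a cluster. In the microglia-like cluster 5 with WBRT, 20 BMDM wells held Fcgr2b at 269 CPM (208 to 342) and 31 microglia wells at 21.1 CPM (7.75 to 45.9), on 66 and 6 counts, a fold of 12.8 (5.55 to 36.0). Fcgr3 in the same wells had 1054 CPM in BMDM, against 623 CPM in microglia, a fold of 1.69 (1.39 to 2.06), while Fcgr1 was at 616 CPM in both. In cluster 3 with WBRT, 20 BMDM and 46 microglia wells had Fcgr2b at 273 CPM (171 to 414) and 225 CPM (148 to 327), a fold of 1.22 (0.660 to 2.22). The sorts thus stood apart at Fcgr2b in cluster 5 and within counting error in cluster 3.

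Across wells of a library, Pearson correlations of log2(1 + counts per 10000) are given as description, and wells of a library share depth and sparse counts. In BMDM with WBRT the strongest pair was Fcgr2b with Fcer1g (r = 0.45 over 262 wells), and in BMDM without WBRT Fcgr3 with Fcer1g (r = 0.45 over 234 wells). In microglia no pair passed 0.24 with WBRT or 0.15 without. Of 1012 genes of at least 100 CPM in every library, those nearest to Fcgr1 included Csf1r, the receptor for the growth factor of macrophages (mean r 0.39 over the 4 libraries), the cathepsin gene Ctss (0.39), Ly86 (0.33) and the microglial Tmem119 (0.33). Nearest to Fcgr3 were, among others, the selenoprotein gene Sepp1 (0.37) and the cathepsin genes Ctsb (0.37), Ctsl (0.35) and Ctsd (0.35). For Fcgr2b only the lysozyme gene Lyz1 reached a mean of 0.30, and for Fcgr4 and Fcer1g no gene did. For Fcgr3 and Ctsb the r ranged from 0.01 to 0.66 between libraries, while for Fcgr1 and Csf1r it ranged from 0.33 to 0.46.

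Other genes of the pathway were taken from 6 lists, with the same limits for a call. The background for their counts is the share of all tested genes: with WBRT 5.16% were called higher and 6.14% lower in BMDM, and 9.36% higher and 7.56% lower in microglia. For BMDM over microglia it was 7.91% higher and 7.45% lower with WBRT, and 10.3% higher and 6.81% lower without. Among relatives of the receptors, Fcrls, an Fc receptor-like gene of microglia and macrophages, stood at 551 CPM in BMDM with WBRT, 102 CPM in BMDM without, 361 CPM in microglia with WBRT and 105 CPM in microglia without. It was called higher with WBRT in both sorts, at 5.40-fold (4.51 to 6.53) in BMDM and 3.43-fold (2.68 to 4.41) in microglia. Fcrls thus differed in the same direction in both sorts, whereas Fcgr2b differed in opposite directions. The neonatal receptor gene Fcgrt lay between 64.0 and 94.8 CPM in the 4 libraries. Of the 11 symbols of this list, Fcer1a, Fcmr and Fcamr were not found in the files under these symbols, and no more than 3 were tested in a comparison. The list's median log2 ratio was 1.10 with WBRT in BMDM (2 genes), 0.31 in microglia (3 genes), 0.27 for BMDM over microglia with WBRT and -0.04 without, each over 3 genes, beside 0.08, 0.06, 0.07 and 0.02 over all tested genes.

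The list of ITAM adaptors and receptors grouped with them, some of which are C-type lectins that use the same gamma chain, had 3 of 8 tested called higher with WBRT in BMDM. In microglia 3 of 7 were called higher, and 0 and 1 were called lower in BMDM and microglia. Among all tested genes 5.16% and 9.36% were called higher and 6.14% and 7.56% lower. Their median log2 ratio was 0.39 in BMDM and 0.51 in microglia. Clec4n, which encodes the gamma chain-coupled receptor dectin-2, stood at 214 CPM in BMDM with WBRT and 57.7 CPM without, and at 64.7 CPM in microglia with WBRT and 13.7 CPM without. Clec4d, another receptor of this group, stood at 116 CPM in BMDM with WBRT and 30.8 CPM without, and at 74.0 CPM in microglia with WBRT and 1.14 CPM, a single count, without. Clec7a, encoding the beta-glucan receptor dectin-1, stood at 384 CPM in microglia with WBRT and 44.6 CPM without. In the other direction Cd300lf had 13 counts in microglia with WBRT and 303 counts (347 CPM) without. In BMDM over microglia, 3 of 8 were called higher and 0 lower with WBRT, and 4 higher and 2 lower without, with medians of 0.61 and 0.76.

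Of the kinases of the pathway, 0 of 8 were called higher and 1 lower with WBRT in BMDM, and 1 of 7 higher and 1 lower in microglia, with medians of 0.00 and -0.32. Among all tested genes 6.14% were called lower in BMDM and 7.56% in microglia, so counts of 1 are near the background. Syk, which docks on the gamma chain, stood at 165 CPM in BMDM with WBRT and 107 CPM without, and at 78.6 CPM in microglia with WBRT and 68.6 CPM without. Fgr, a Src-family kinase, had 13 counts in microglia with WBRT and 56 counts (64.0 CPM) without, and stood at 139 CPM in BMDM with WBRT and 167 CPM without. Fyn stood at 38.2 CPM in BMDM with WBRT and 105 CPM without, with 0 counts in microglia without WBRT. In BMDM over microglia, 3 of 8 kinases were called higher with WBRT and 3 without, with 1 and 0 called lower and medians of 0.69 and 0.34.

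The adaptors and lipid signalling genes downstream held no call with WBRT, in 15 tested in BMDM and 14 in microglia, with medians of 0.13 and -0.09. In BMDM over microglia 1 was called higher and 1 lower with WBRT and likewise without, with medians of -0.11 and -0.17. Blnk, an adaptor that links Syk to phospholipase C, was the lower one with WBRT, with 83.2 CPM in BMDM against 177 CPM in microglia. Actin and phagocytic cup genes were called higher with WBRT in 2 of 18 in BMDM and 1 of 19 in microglia, with none called lower and medians of 0.24 and 0.16, against 5.16% and 9.36% of all tested genes called higher. Ncf4, a subunit of the phagocyte oxidase, was called in both sorts, at 243 CPM in BMDM with WBRT and 118 CPM without, and at 145 CPM in microglia with WBRT and 69.7 CPM without. In BMDM over microglia 1 of 19 was called higher with WBRT and 1 without, with 0 and 1 called lower and medians of 0.14 and 0.02, and the higher one was Cybb, the catalytic oxidase subunit.

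Inhibitory phosphatases, adaptors and ITIM receptors are the genes closest in role to Fcgr2b. With WBRT, 3 of 14 tested were called higher and 1 lower in BMDM, and none of 12 in microglia, with medians of 0.29 and 0.20. Among all tested genes 5.16% were called higher in BMDM and 6.14% lower. The ITIM receptors Cd72 (103 CPM with WBRT and 37.1 CPM without) and Pilra (92.7 CPM with WBRT and 35.6 CPM without) and the adaptor Dok3 (94.7 CPM with WBRT and 37.1 CPM without) were called higher in BMDM. Cblb, a ubiquitin ligase that limits signalling, was the lower one, at 10.7 CPM in BMDM with WBRT and 71.1 CPM without. In microglia Cd72 had 97.1 CPM with WBRT, against 54.9 CPM without, and Dok3 at 57.0 CPM with WBRT and 29.7 CPM without, both in the direction opposite to Fcgr2b. In BMDM over microglia 2 of 13 were called higher with WBRT and 2 of 14 without, with none lower and medians of 0.08 and 0.10. Pirb and Lilrb4a were not found in the files under these symbols.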

How the data were processed

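Single cells of 4 plates, 1 a group, were read from the deposited tables, whose values are expected counts of transcripts per gene and well, not normalized. The correction for coinciding UMIs was read from the deposited values: all nonzero values (100%) matched that for 4096 identifiers within 0.005. Per the submitters' processing notes the genome build was GRCm38; the sources used here do not name the aligner, the counter or the annotation. The 5 genes, the pathway and marker lists and the rule for named genes (all 5 genes; up to 4 a list and comparison by log2 ratio among genes of at least 50 CPM; up to 5 nearest genes with mean r of at least 0.3; leading genes of clusters) were chosen with earlier results of these data known. Values of some listed genes are not reported here.

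Wells were kept with at least 1000 counts outside ERCC and mitochondrial genes and an ERCC share under 50%; the ERCC limit alone removed 15 wells, all of microglia with WBRT. CPM is over all counts but ERCC, and a count of 3 equals 1.19, 2.37, 4.62 and 3.43 CPM in BMDM with WBRT, BMDM without, microglia with WBRT and microglia without. Counts were rounded only for intervals (exact Poisson, Clopper-Pearson binomial, conditional Poisson for folds; scipy 1.17.1) and TMM factors (edgeR 4.0.16). Transcripts of a well are not independent, so intervals cover counting error only. Clustering used scanpy 1.11.5 (2000 variable genes, 30 components, 15 neighbours, Leiden resolution 1). Doublets were not called, as each well received 1 sorted cell. Thinning to 1000 UMIs left out no kept well. Wells carry the same position names in each plate, so shared cells could not be counted. Other limits on wells, weightings, scalings, pseudocounts and left-out clusters were tried. Wells unlike the sort were those outside clusters 4, 5 and 8 in microglia, and those in clusters 1, 4, 5, 7, 8 and 9 in BMDM. Clusters 0, 2, 3 and 6 thus stayed in BMDM and were left out of microglia. Computations were tested on simulated data. Fcgr3 and Fcgr2b transcripts of the GENCODE annotation share 10.6% of 60-base stretches of Fcgr3, and their last 500 bases share none except in 1 short Fcgr2b transcript (2.95%).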

Additional observations from a re-analysis of the deposited data

Results flagged for a closer look

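Fcgr2b and Fcgr1 differed with WBRT in opposite directions in the sorts. For Fcgr1 the log2 ratio in BMDM, 0.23, changed sign without wells unlike the sort (-0.089) and scaled to spike-ins (-0.018). For Fcgr2b the log2 ratio with WBRT over none in BMDM exceeded that in microglia by 2.42, and for Fcgr1 by 1.23. With 1 library a group, neither difference was tested.

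Fcer1g was also detected in the wells left out for low counts or a high spike-in share: in 32.0% of those of BMDM with WBRT, 16.7% of BMDM without, 39.5% of microglia with WBRT and 26.4% of microglia without. These wells held medians of 178, 98, 200 and 84 counts in the same order. Whether they held cells was not tested.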

How the results depend on the processing

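Of 300 values of the 20 folds (5 genes in 4 comparisons) under 15 alternatives, 228 stayed within the counting interval of the fold, 63 moved beyond it and 9 changed direction in folds whose interval excludes 1. Of these, direction changed, on the log2 scale, for Fcgr1 (-0.089), Fcgr3 (-0.35) with WBRT in BMDM and Fcgr3 (0.15) in BMDM over microglia without WBRT once wells unlike the sort were left out. It changed for Fcgr3 with WBRT in microglia without low-Malat1 clusters (-0.10), and for Fcer1g in BMDM over microglia with WBRT at 1000 UMIs (-0.027). Scaled to spike-ins, chosen after seeing the data as were leaving out cluster 2, 3 or 6 or the top well, it changed for Fcgr1 with WBRT in BMDM (-0.018), Fcgr3 (-1.29) and Fcer1g (-1.43) with WBRT in microglia and Fcgr3 in BMDM over microglia with WBRT (1.01). Another 9, counted above by their distance from the fold, crossed 0 in folds whose interval includes 1, which ranged from -0.18 to 0.53 for Fcgr4 with WBRT in BMDM, from -0.32 to 1.29 for Fcgr4 in BMDM over microglia with WBRT and from -0.035 (without cluster 6) to 0.75 for Fcgr2b without WBRT. In its other comparisons Fcgr2b kept its direction under all 15, from 0.80 to 1.41 with WBRT in BMDM, from -2.70 to -0.66 in microglia and from 1.99 to 3.96 in BMDM over microglia with WBRT. The cause of these shifts was not tested.

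The number of the 5 genes called, 1 in each comparison, became, with WBRT in BMDM, 2 with wells weighted alike, at 1000 UMIs or without the top well, 3 without cluster 6 and 0 without cluster 2 or without wells unlike the sort. In microglia it became 2 at 500 or 3000 counts, without low-Malat1 clusters, wells unlike the sort, cluster 6 or cluster 3 and with TMM, 3 without the top well and 5 by spike-ins. At 1000 UMIs and with wells weighted alike the number there stayed 1, but the gene called was Fcgr4 and not Fcgr2b. In BMDM over microglia it became 5 by spike-ins with WBRT, and without WBRT 2 at 1000 UMIs, 0 without wells unlike the sort and 3 without cluster 6.

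The activating share moved to 74.5% without wells unlike the sort and 80.6% without cluster 2 in BMDM with WBRT, and to 83.7% at 1000 UMIs in BMDM without. In microglia with WBRT it was 96.8% at 3000 counts, 93.6% with wells weighted alike, 93.5% at 1000 UMIs, 97.1% without low-Malat1 clusters, 97.5% without wells unlike the sort and 97.4% without cluster 3. With no filter on CPM, 7.33% of genes were called in BMDM with WBRT, against 11.3%. No paired analysis was possible because each group is 1 sample.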

Other observations

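Sdhc, a subunit of mitochondrial complex II whose gene lies between Fcgr3 and Fcer1g on chromosome 1, stood at 88.3 CPM in BMDM with WBRT, 49.8 CPM in BMDM without, 92.5 CPM in microglia with WBRT and 67.5 CPM in microglia without. The Fc receptor-like genes Fcrla and Fcrlb, beside Fcgr2b, were at or below 1.59 CPM in each library.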
